A study of Homo sapiens with 18 samples.

Results

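PMEPA1 and 8 genes of the SMAD signalling chain (TGFBR1, SMAD2, SMAD3, SMAD4, SMAD6, SMAD7, SKI and SKIL) were followed in LNCaP, a human prostate adenocarcinoma line. The 9 genes were taken by their symbols from a table of 20145 genes, and all 9 were among the 15422 genes with enough reads to test. RNA was sequenced after 72 h with 1 µM of 2-77, 0.2 µM of ACBI, 2 µM of BD98, 10 µM of P-16 (written PB16 in the treatment protocol), 10 µM of ENZA (enzalutamide, an antiandrogen) or the DMSO vehicle, with 3 libraries per condition and 18 in all. Every library came from LNCaP cells grown in RPMI with 10% serum, so no condition was free of the growth factors and hormones that serum carries. The series title concerns inhibitors of the bromodomain of BRD7, and the labels do not say what any of the compounds binds. Each compound was used at 1 dose, and the doses differed between most compounds.

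Ligands of the TGF-beta and activin group bind type II receptors, which switch on type I receptor kinases such as TGFBR1. The kinase phosphorylates SMAD2 and SMAD3, and these join SMAD4 and enter the nucleus. SMAD6, SMAD7, SKI, SKIL and PMEPA1 restrain SMAD signalling. PMEPA1 is known in the prostate as an androgen-induced gene and elsewhere as a TGF-beta-induced one, and its membrane protein keeps SMAD2 and SMAD3 away from the receptor. LNCaP cells are known for a weak response to TGF-beta itself.

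Levels are given as CPM, read counts scaled to library size with TMM factors, changes as log2 fold change of the compound over DMSO with its standard error, and p-values from edgeR's quasi-likelihood test, with Benjamini-Hochberg adjustment across the 15422 tested genes. A gene is said to have risen or fallen where the adjusted p was under 0.05. Since CPM does not correct for transcript length, levels are compared between conditions and not between genes. The libraries held 16835113 to 36975052 counts, and the 9 genes had at least 130 counts in each. Nothing in the labels says that the 3 libraries of a condition were separate cultures, so p-values measure the spread between these libraries, which may be technical. ACBI replicate 3 stood apart, with 8.6% of its counts on ribosomal RNA genes against 0.64% to 2.09% in the others. For PMEPA1, TGFBR1, SMAD4 and the count of the 9 genes called, ACBI values are also given without it. SMAD2, SMAD3, SMAD6 and SMAD7 kept their direction and call with ACBI when it was left out. Changes of single genes outside the 9 were not recomputed without it. Libraries of a condition were also compared by chi-square per degree of freedom, which is 1 for count sampling alone. For ACBI replicate 3 it was 129 and 109, against 2.88 between replicates 1 and 2. To a lesser degree 2-77 replicate 3 stood apart too, at 12.6 and 14.3 against 2.14. In the other conditions it was 3.02 to 9.05. Of the cell type markers, the 7 luminal ones used were all measured, with summed levels of 4900.3 to 4950.4 CPM with 2-77, 5045 to 5126 with ACBI, 5556 to 5778 with BD98, 6345 to 6398 with P-16, 5421 to 5594 with ENZA and 7958 to 8032 with DMSO. That list includes the androgen-induced KLK3, at 4277 CPM with DMSO. KLK3 was at 737 CPM with 2-77, 654 with ACBI, 2557 with BD98, 2399 with P-16 and 961 with ENZA, and weighs heavily on the sums. The median log2 fold change of the 7 luminal markers was 0.01, -0.04, -0.2, 0.01 and 0.05 in that order of compounds. Of basal, stromal, immune and endothelial markers, 2 of 4, 5 of 6, 3 of 4 and 2 of 3 were measured. Basal markers summed to at most 2.15 CPM in any library and immune markers to at most 7.18 CPM, with PTPRC, which marks leukocytes, at 0 to 2 counts per condition. The stromal sum was 28.5 to 30.9 CPM with 2-77, 5.7 to 6.53 with ACBI, 11.5 to 13.3 with BD98, 21.0 to 23.7 with P-16, 17.4 to 19.3 with ENZA and 14.8 to 15.8 with DMSO, mostly from VIM, with DCN at 0 to 7 counts per condition. The endothelial sum was 5.73 to 6.71 CPM with 2-77, 0.58 to 0.87 with ACBI, 56.1 to 57.4 with BD98, 14.6 to 16.5 with P-16, 5 to 6.95 with ENZA and 20.9 to 23 with DMSO, mostly from VWF, with PECAM1 at 0 to 5 counts per condition. What part these markers have in the results below was not tested.

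RefSeq promoter sequence (GRCh38.p14, the assembly that hg38 names) was found for 8 of the 9 genes, in 25 windows of 250 bases before a transcript start. The 4 windows shown were picked because PMEPA1 changed most and because SMAD6 and SMAD7 are feedback genes that moved apart with ACBI. For PMEPA1 only the windows with a match are shown, and for SMAD7 the window with the most matches. The windows were searched on both strands for the SMAD palindrome GTCTAGAC, the SMAD box CAGAC, the androgen receptor hexamer AGAACA and the full androgen response element. Capitals mark the matches on either strand, so that TGTTCT is the hexamer read on the opposite strand, and no match overlapped another. PMEPA1 has 4 windows, numbered from the 5′ end of the gene, of which window 2 is chr20:57710578-57710827 and window 4 is chr20:57690687-57690936, both on the minus strand. Window 1 of SMAD6 is chr15:66701986-66702235 on the plus strand, and window 1 of SMAD7 is chr18:48950966-48951215 on the minus strand.
PMEPA1 window 2: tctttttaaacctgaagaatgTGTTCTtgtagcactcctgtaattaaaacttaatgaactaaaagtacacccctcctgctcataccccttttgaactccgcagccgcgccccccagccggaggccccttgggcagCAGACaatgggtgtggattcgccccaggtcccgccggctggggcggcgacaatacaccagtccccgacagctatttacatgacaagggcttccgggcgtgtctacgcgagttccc
PMEPA1 window 4: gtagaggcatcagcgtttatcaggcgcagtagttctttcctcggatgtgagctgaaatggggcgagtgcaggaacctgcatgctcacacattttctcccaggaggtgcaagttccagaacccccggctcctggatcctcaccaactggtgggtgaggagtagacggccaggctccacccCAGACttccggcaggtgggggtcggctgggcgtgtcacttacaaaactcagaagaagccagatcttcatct
SMAD6 window 1: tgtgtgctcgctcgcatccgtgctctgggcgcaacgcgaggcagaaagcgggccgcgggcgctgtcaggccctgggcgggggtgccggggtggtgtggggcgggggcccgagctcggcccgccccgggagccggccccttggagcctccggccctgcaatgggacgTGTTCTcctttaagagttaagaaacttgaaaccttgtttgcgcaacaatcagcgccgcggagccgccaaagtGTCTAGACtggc
SMAD7 window 1: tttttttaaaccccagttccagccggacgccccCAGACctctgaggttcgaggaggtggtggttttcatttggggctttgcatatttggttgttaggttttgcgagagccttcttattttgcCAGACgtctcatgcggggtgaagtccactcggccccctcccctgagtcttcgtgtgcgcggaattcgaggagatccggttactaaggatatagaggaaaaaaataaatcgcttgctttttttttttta

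In window 2 of PMEPA1, the SMAD box lay 115 to 111 bases and the hexamer 229 to 224 bases before the start. In window 4, a SMAD box lay 71 to 67 bases before it. Windows 1 and 3 of PMEPA1 held none of the motifs searched. The SMAD6 window held the palindrome 12 to 5 bases before the start and a hexamer 84 to 79 bases before it. Window 1 of SMAD7 held 2 boxes, at 217 to 213 and 128 to 124 bases. Window 2 of SMAD7 held a box at 193 to 189 bases, and window 3 held none of the motifs. Of the genes not shown, TGFBR1 had hexamers at 50 to 45 bases in window 3 and 98 to 93 bases in window 8. Boxes were in windows 1, 3, 4 and 6 of TGFBR1, windows 4 and 5 of SMAD3 and window 1 of SKIL. The windows of SMAD2 and SMAD4 held none of the motifs. Among 34788 distinct promoter windows of the same length, the palindrome was in 0.178%, the box in 38%, the hexamer in 12.4% and the full element in 0.00287%. The box and the hexamer were therefore common, and a match describes letters only.

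PMEPA1 fell with each of the 5 compounds, to 20.8% of the DMSO level with 2-77, 37.8% with ACBI, 40.4% with BD98, 24.3% with P-16 and 20.6% with ENZA. The gene lies on chromosome 20 at 57648392 to 57711536 (hg38, minus strand). Its level was 61.7, 60.9 and 60.0 CPM with 2-77, 109.8, 109.2 and 112.6 CPM with ACBI and 117.1, 117.3 and 119.9 CPM with BD98. It was 72.0, 71.2 and 69.9 CPM with P-16 and 59.7, 60.9 and 60.6 CPM with ENZA, against 296.5, 292.1 and 289.8 CPM with DMSO. All 15 treated libraries lay below all 3 DMSO libraries, and within a condition the libraries differed by a few percent at most. In bulk RNA, a change in the number of cells that carry a transcript and in its amount per cell cannot be told apart.

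The log2 fold change of PMEPA1 was -2.27 (SE 0.037, adjusted p = 2.54e-28) with 2-77. It was -1.41 (SE 0.035, adjusted p = 1.86e-24) with ACBI and -1.31 (SE 0.035, adjusted p = 1.15e-22) with BD98. With P-16 it was -2.04 (SE 0.037, adjusted p = 2.65e-26) and with ENZA -2.28 (SE 0.037, adjusted p = 3.51e-28). Without ACBI replicate 3, the ACBI value was -1.41 (adjusted p = 1.087e-27). Of all genes tested, 20.2% fell with 2-77, 36.6% with ACBI, 24.5% with BD98, 11.6% with P-16 and 18.1% with ENZA, so a fall by itself was common. Among 15422 genes, 73 had a lower log2 fold change than PMEPA1 with 2-77, 1456 with ACBI, 416 with BD98, 34 with P-16 and 77 with ENZA. Ranked by p from the smallest, PMEPA1 was number 6 with 2-77, 171 with ACBI, 19 with BD98, 1 with P-16 and 4 with ENZA.

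**Figure D1:**
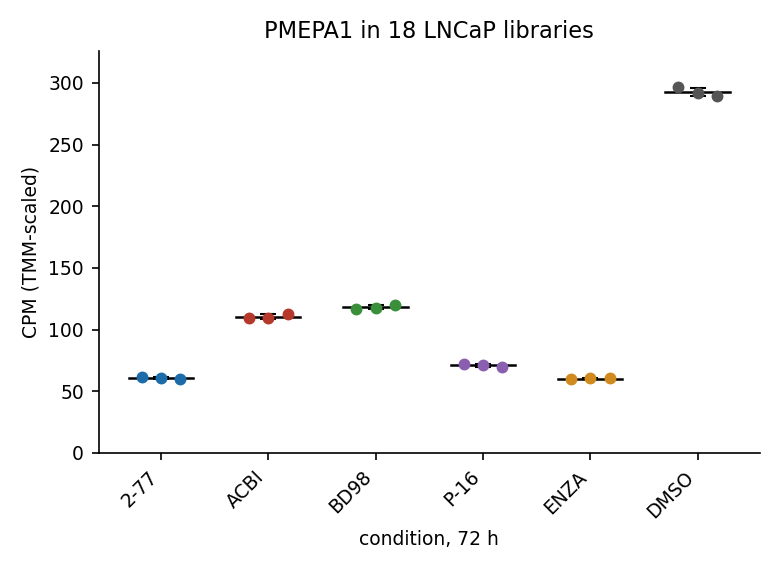
PMEPA1 level (CPM, TMM-scaled, axis from 0) in each of 18 libraries by condition; points are libraries, the long bar is the mean of 3 and the whiskers are 1 SD. The treated libraries lie between 59.7 and 119.9 CPM, all below the DMSO libraries at 289.8 to 296.5 CPM.

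The conditions ranked in the order ENZA (60.4 ± 0.641 CPM, SD, n = 3), 2-77 (60.9 ± 0.865), P-16 (71.0 ± 1.07), ACBI (111 ± 1.78), BD98 (118 ± 1.56) and DMSO (293 ± 3.42), low to high. Neighbours in this order differed in adjusted p except for ENZA and 2-77. The difference of 2-77 over ENZA was 0.01 (adjusted p = 0.918), with a 95% interval of -0.07 to 0.09 on the log2 scale, although 2-77 was used at 1 µM and ENZA at 10 µM. P-16 and ENZA shared the dose of 10 µM, and PMEPA1 was higher with P-16 by 0.23 (SE 0.038, adjusted p = 2.94e-05). PMEPA1 was 0.1 lower with ACBI than with BD98 on the log2 scale (SE 0.036, adjusted p = 0.0187), and this smallest of the called differences missed the threshold in 8 of 28 other settings, among them those without ACBI replicate 1 or 2 or any 1 BD98 library (-0.09 to -0.08). PMEPA1 differed in 14 of the 15 pairs of conditions, a count that was 13 or 14 in those settings. For these direct comparisons the doses differ apart from P-16 and ENZA.

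The direct comparisons between compounds had very different backgrounds. The share of tested genes that differed was 70.2% for 2-77 with ACBI, 42% for 2-77 with BD98, 22.4% for 2-77 with P-16 and 5.54% for 2-77 with ENZA. It was 69.6% for ACBI with BD98, 71.5% for ACBI with P-16 and 70.1% for ACBI with ENZA. It was 43.6% for BD98 with P-16, 42.5% for BD98 with ENZA and 21.4% for P-16 with ENZA. For 2-77 with ENZA, the pair with the fewest differing genes, none of the 9 genes differed in adjusted p (smallest 0.422, for SMAD6).

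NKILA, a long non-coding RNA known as a brake on NF-kB signalling, lies on the opposite strand and overlaps PMEPA1. It averaged 6.69 ± 1.02 CPM with 2-77, 12.2 ± 0.213 with ACBI, 7.03 ± 0.143 with BD98, 6.35 ± 0.524 with P-16 and 6.62 ± 0.328 with ENZA, against 11.1 ± 0.748 with DMSO (SD, n = 3 each). NKILA fell with 2-77 (log2 fold change -0.74, SE 0.105, adjusted p = 1.46e-06), BD98 (-0.65, adjusted p = 7.97e-06), P-16 (-0.81, adjusted p = 1.31e-06) and ENZA (-0.74, adjusted p = 1.52e-06), and was 0.14 with ACBI (SE 0.0999, adjusted p = 0.198). The kit marks strand, but the strand setting of the counting is not given in the sources used here, and reads of the overlap cannot then be assigned with certainty. PMEPA1 reads outnumbered those of NKILA in every condition, at a mean of 119 against 8.34 CPM over all libraries.

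TGFBR1, the type I receptor kinase for TGF-beta (chromosome 9, 99105113 to 99154191, plus strand), fell slightly with ACBI and had no called change with the other 4 compounds. It measured 19.6, 18.8 and 22.1 CPM with 2-77, 16.4, 14.2 and 19.1 CPM with ACBI and 19.01, 21.8 and 17.8 CPM with BD98. With P-16 it measured 20.1, 19.2 and 17.6 CPM and with ENZA 19.8, 19.1 and 18.4 CPM, against 20.3, 21.6 and 18.1 CPM with DMSO. The highest ACBI library reached into the DMSO range, and the libraries of the other compounds overlapped it throughout. The fall with ACBI was -0.27 (SE 0.097, adjusted p = 0.0149), -0.37 without ACBI replicate 3, -0.17 without ACBI replicate 2 and -0.2 without DMSO replicate 2, the last 2 without a call. For the other 4 compounds the log2 fold change was between -0.07 and 0.01, and each 95% interval lay within -0.27 and 0.21.

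SMAD2 and SMAD3, the receptor-activated SMADs of the TGF-beta and activin branch, moved in opposite directions with ACBI. SMAD2 (chromosome 18, 47808957 to 47931146, minus strand) was 107.1, 105.3 and 116.0 CPM with ACBI, against 77.2, 73.0 and 75.0 CPM with DMSO. It was 77.5, 76.6 and 83.4 CPM with 2-77, 78.9, 77.6 and 66.1 CPM with BD98, 76.9, 77.5 and 77.1 CPM with P-16 and 78.3, 81.7 and 78.6 CPM with ENZA. The ACBI libraries stood clear of all 15 others. SMAD2 rose with ACBI by 0.55 (SE 0.054, adjusted p = 3.44e-10), which is 1.46-fold, and ACBI was higher than each of the other 4 compounds by 0.46 to 0.57 (largest adjusted p = 8.24e-09). With the other compounds the log2 fold change lay between -0.02 and 0.09, and none was called.

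SMAD3 (chromosome 15, 67065602 to 67195195, plus strand) was 10.8, 8.48 and 10.4 CPM with ACBI, against 16.4, 17.3 and 16.9 CPM with DMSO. It was 22.7, 26.4 and 20.9 CPM with 2-77, 16.01, 16.01 and 17.9 CPM with BD98, 18.4, 20.6 and 21.2 CPM with P-16 and 22.6, 22.5 and 22.4 CPM with ENZA. The ACBI libraries lay below the DMSO libraries, those of 2-77, P-16 and ENZA lay above them, and those of BD98 overlapped them. SMAD3 fell with ACBI by 0.76 on the log2 scale (SE 0.096, adjusted p = 3.47e-08), to 58.9% of the DMSO level. It rose 1.38-fold with 2-77 (0.47, SE 0.087, adjusted p = 7.39e-05) and 1.33-fold with ENZA (0.41, SE 0.088, adjusted p = 0.000361). The rise with P-16 was at the edge of the threshold (0.25, SE 0.09, adjusted p = 0.0461) and was not called in 15 of 28 other settings, among them DESeq2 (adjusted p = 0.0567) and the removal of any 1 DMSO library or of P-16 replicate 2 or 3 (0.21 to 0.27). Its direction held in all of them. The difference of 2-77 over ACBI was 1.23 (SE 0.091, adjusted p = 5.13e-13), the largest between 2 compounds for any of the 9 genes.

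SMAD4, the partner that both receptor-activated SMADs bind (chromosome 18, 51030213 to 51085041, plus strand), rose with ACBI and with no other compound in adjusted p. It was 73.5, 73.2 and 81.1 CPM with ACBI, against 61.5, 60.0 and 58.9 CPM with DMSO. It was 63.0, 58.7 and 69.7 CPM with 2-77, 62.9, 61.0 and 55.3 CPM with BD98, 57.6, 64.1 and 61.6 CPM with P-16 and 62.9, 66.7 and 64.2 CPM with ENZA. The ACBI libraries lay above all 15 others. The rise was 0.34 (SE 0.06, adjusted p = 1.04e-05), or 0.3 without ACBI replicate 3 (adjusted p = 4.896e-05), and ACBI exceeded each other compound by 0.23 to 0.35 (largest adjusted p = 0.000872). The log2 fold changes with the other 4 compounds were between -0.01 and 0.11.

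**Figure D2:**
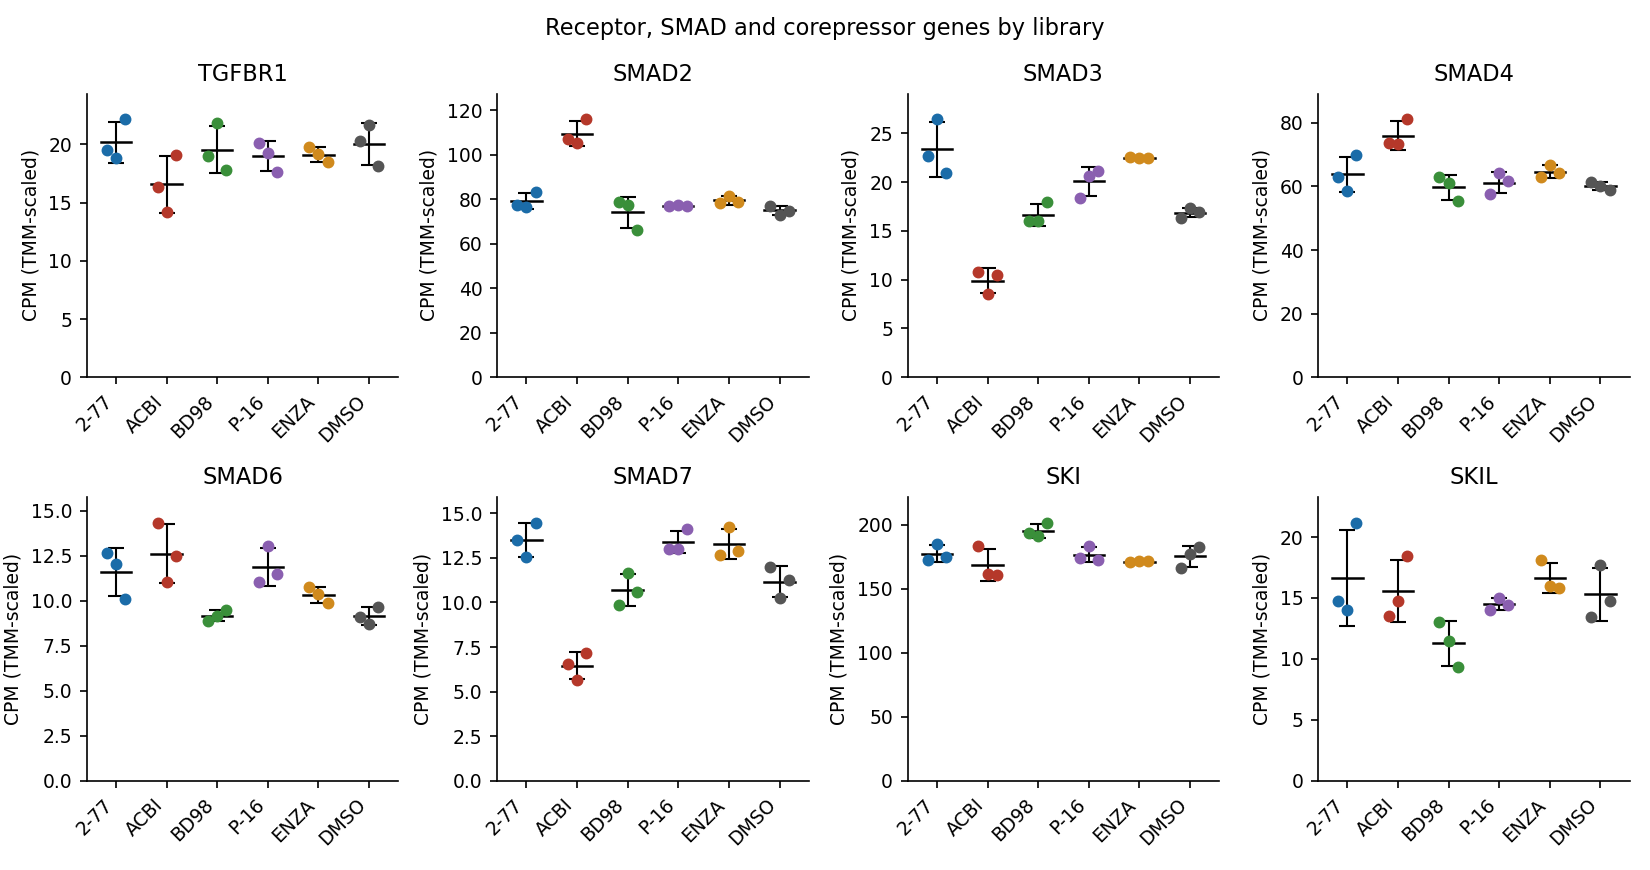
Levels (CPM, TMM-scaled, each axis from 0) of TGFBR1, SMAD2, SMAD3, SMAD4, SMAD6, SMAD7, SKI and SKIL in each of 18 libraries by condition; points are libraries, the long bar is the mean of 3 and the whiskers are 1 SD. ACBI libraries stand above the rest for SMAD2 and SMAD4 and below the rest for SMAD3 and SMAD7, and the BD98 libraries of SKI and SKIL stand on opposite sides of DMSO.

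SMAD6 and SMAD7, the inhibitory SMADs, separated with ACBI. SMAD6 is known for damping mainly the BMP branch (chromosome 15, 66702236 to 66782849, plus strand). It was 12.6, 12.05 and 10.1 CPM with 2-77, 14.3, 11.05 and 12.5 CPM with ACBI and 8.88, 9.17 and 9.48 CPM with BD98. It was 11.03, 13.1 and 11.5 CPM with P-16 and 10.8, 10.4 and 9.87 CPM with ENZA, against 9.08, 8.70 and 9.67 CPM with DMSO. The libraries of 2-77, ACBI, P-16 and ENZA all lay above the DMSO libraries, by a small margin for ENZA and for 1 library of 2-77.

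SMAD6 rose with 2-77 (0.34, SE 0.104, adjusted p = 0.00944), ACBI (0.46, SE 0.104, adjusted p = 0.000241) and P-16 (0.37, SE 0.106, adjusted p = 0.0104). The SMAD6 call was lost for 2-77 without 2-77 replicate 1 (0.27), and for P-16 without P-16 replicate 2 (0.3) or DMSO replicate 2 (0.34). With ENZA it was 0.17 (SE 0.106, adjusted p = 0.211) and with BD98 0.0043 (adjusted p = 0.977). In the order of levels, DMSO, BD98, ENZA, 2-77, P-16 and ACBI, no neighbours differed in adjusted p, and 7 of the 10 pairs farther apart did. SMAD6 lies at 156 to 390 counts per library and SMAD7 at 130 to 525, the thinnest of the 9 genes, and their standard errors were larger than those of PMEPA1.

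SMAD7 blocks the TGF-beta receptor and is itself induced by SMAD3 and SMAD4 (chromosome 18, 48919853 to 48950711, minus strand). It was 6.57, 5.65 and 7.17 CPM with ACBI, against 11.99, 10.3 and 11.2 CPM with DMSO. It was 13.5, 12.5 and 14.5 CPM with 2-77, 9.87, 11.6 and 10.6 CPM with BD98, 13.0, 13.0 and 14.1 CPM with P-16 and 12.7, 14.2 and 12.9 CPM with ENZA. The ACBI libraries lay below all others, and those of 2-77, P-16 and ENZA lay above the DMSO libraries. SMAD7 fell with ACBI by 0.78 on the log2 scale (SE 0.103, adjusted p = 8.64e-08), to 58.1% of the DMSO level. The rises were smaller, at 0.28 with 2-77 (SE 0.094, adjusted p = 0.0191), 0.26 with P-16 (SE 0.096, adjusted p = 0.0469) and 0.26 with ENZA (SE 0.094, adjusted p = 0.0319). They were not called in 2, 13 and 4 of 28 other settings, in that order of compounds, always with the same sign. Without DMSO replicate 2 the SMAD7 rise was not called with any of the 3 (0.22 with 2-77, 0.21 with P-16 and 0.2 with ENZA), nor was it without 2-77 replicate 3 (0.23 with 2-77), ENZA replicate 2 (0.2 with ENZA) or DMSO replicate 3 (0.27 with ENZA and with P-16). The P-16 call of SMAD7 was also lost without any 1 P-16 library, 2-77 replicate 1, BD98 replicate 3, or ENZA replicate 1 or 3. The SMAD7 log2 fold change with BD98 was -0.07 (SE 0.098, adjusted p = 0.611).

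SKI and SKIL, the nuclear corepressors that bind SMAD complexes, were the genes called with BD98 besides PMEPA1. SKI (chromosome 1, 2228319 to 2310213, plus strand) was 193.7, 190.9 and 201.5 CPM with BD98, against 166.1, 177.3 and 182.5 CPM with DMSO. It was 172.2, 184.9 and 175.0 CPM with 2-77, 183.1, 161.3 and 160.9 CPM with ACBI, 174.1, 183.2 and 172.7 CPM with P-16 and 170.6, 171.4 and 171.6 CPM with ENZA. The BD98 libraries lay above all 15 others, and the remaining compounds overlapped DMSO. SKI rose by 0.16 with BD98 (SE 0.045, adjusted p = 0.00452), a change of 1.11-fold, and missed the threshold without DMSO replicate 1 (0.12, adjusted p = 0.0502). Without ACBI replicate 1, SKI also fell with ACBI (-0.12, adjusted p = 0.0159). BD98 was also above each other compound, by 0.14 to 0.21 (largest adjusted p = 0.0112). The pairs of conditions that differed in SKI were 5, and 3 without BD98 replicate 3.

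SKIL (chromosome 3, 170357715 to 170396849, plus strand), whose protein SnoN is broken down when TGF-beta signals, was 13.0, 11.5 and 9.34 CPM with BD98, against 13.4, 17.7 and 14.8 CPM with DMSO. It was 14.8, 14.0 and 21.2 CPM with 2-77, 13.6, 14.7 and 18.4 CPM with ACBI, 14.0, 15.0 and 14.5 CPM with P-16 and 18.1, 16 and 15.8 CPM with ENZA. The BD98 libraries lay below all others but by a narrow gap, and SKIL varied between libraries of a condition, with a SD of 3.94 CPM around 16.6 CPM with 2-77. SKIL fell with BD98 by 0.46 (SE 0.169, adjusted p = 0.0353), a call lost in 6 of 28 other settings. Without BD98 replicate 3 the change was -0.32 (adjusted p = 0.156), and without DMSO replicate 2 it was -0.34 (adjusted p = 0.15), and without BD98 replicate 2 or DMSO replicate 3 it was -0.48 without a call. No pair of conditions differed in SKIL without BD98 replicate 3, against 4 pairs with it. The log2 fold changes with the other compounds ran from -0.08 to 0.12.

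Across the 9 genes, 4 changed with 2-77 (3 up, 1 down), 7 with ACBI (3 up, 4 down), 3 with BD98 (1 up, 2 down), 4 with P-16 (3 up, 1 down) and 3 with ENZA (2 up, 1 down). Among all genes tested, 20.5% rose with 2-77, 35.4% with ACBI, 24.5% with BD98, 12.4% with P-16 and 18.2% with ENZA. In the same order of compounds, 20.2%, 36.6%, 24.5%, 11.6% and 18.1% of all genes fell. Called in either direction were 40.7%, 72%, 49%, 24% and 36.3% of all genes, against 44.4%, 77.8%, 33.3%, 44.4% and 33.3% of the 9. The counts of the 9 genes were not tested against these shares. For BD98 the split of all calls was 3783 up and 3776 down, and 4640 up and 2869 down with library totals in place of TMM factors. The ACBI count was also 7 without ACBI replicate 3 and without ribosomal RNA genes. The P-16 count was 2 with DESeq2, with library totals and with a replicate block, where SMAD3 and SMAD7 missed the threshold, 2 without 2-77 replicate 1, P-16 replicate 3, ENZA replicate 1 or 3, or DMSO replicate 3, and 1 without P-16 replicate 2 or DMSO replicate 2. The median log2 fold change of the 9 genes was 0.09 with 2-77, -0.06 with ACBI, -0.02 with BD98, 0.02 with P-16 and 0.11 with ENZA, against medians within 0.01 of 0 over all genes. SMAD3, SMAD6 and SMAD7 rose with 2-77 and P-16, SMAD3 and SMAD7 with ENZA, and SMAD3 and SMAD7 fell with ACBI. These comparisons share the DMSO libraries.

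**Figure D3:**
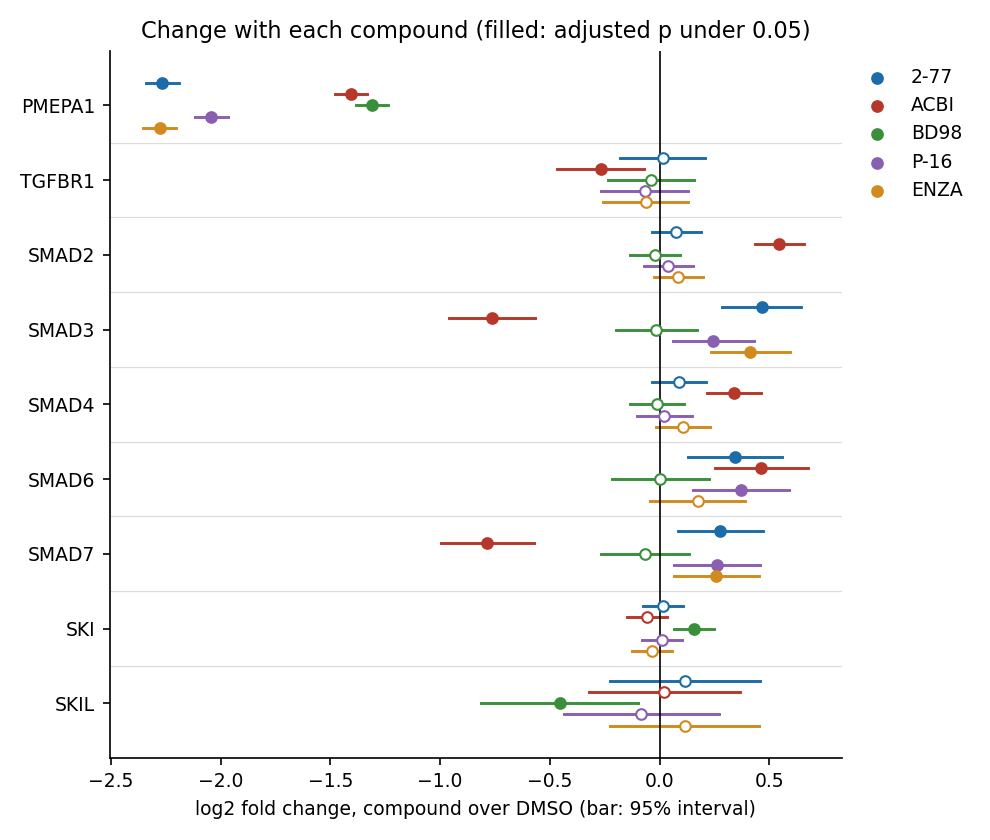
Log2 fold change over DMSO (horizontal axis) of the 9 genes with each compound, with 95% intervals; filled points have an adjusted p under 0.05. PMEPA1 lies between -2.28 and -1.31, and the other genes lie between -0.78 and 0.55.

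Of 72 further genes of TGF-beta, activin and BMP signalling, listed by role, 57 were tested. Of these 57, 23 rose and 10 fell with 2-77, 28 rose and 12 fell with ACBI, 12 rose and 16 fell with BD98, 13 rose and 7 fell with P-16, and 17 rose and 10 fell with ENZA. That was 57.9% called with 2-77, 70.2% with ACBI, 49.1% with BD98, 35.1% with P-16 and 47.4% with ENZA, against 40.7%, 72%, 49%, 24% and 36.3% of all genes in the same order of compounds. The median log2 fold change of the 57 was 0.13, 0.35, -0.01, 0.04 and 0.1 in that order.

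GDF15, a stress-induced member of the ligand family, fell with 4 compounds and rose with P-16, and GDF11 rose with all 5. Of the 15 ligands 7 were tested, with 1 up and 1 down with 2-77, and 2 up and 2 down with ACBI. With BD98, 1 rose and 3 fell, with P-16, 2 rose, and with ENZA, 1 rose and 2 fell. Called were 28.6%, 57.1%, 57.1%, 28.6% and 42.9% in that order, against 40.7%, 72%, 49%, 24% and 36.3% of all genes. GDF15 averaged 1584 ± 96.6 CPM with 2-77, 1447 ± 112 with ACBI, 907 ± 24.4 with BD98, 2311 ± 72.3 with P-16 and 923 ± 7.46 with ENZA, against 1944 ± 52.6 with DMSO (SD, n = 3 each). The GDF15 rise with P-16 was 0.25 (adjusted p = 0.00018). GDF11, a relative of myostatin, reached 264 ± 7.19 CPM with ACBI, against 36 ± 2.04 CPM with DMSO (log2 fold change 2.87, SE 0.0506, adjusted p = 3.61e-28). INHBB, the activin B subunit, fell with ACBI (-1.49) and BD98 (-0.53).

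Of the genes listed as ligand traps and latency proteins, 6 of 6 tested rose with 2-77. With ENZA 5 rose, with P-16 3, with ACBI 2 and with BD98 1, and none fell. The LTBP4 call with 2-77 was near the threshold (0.15, adjusted p = 0.0434), and CHRD had only 16 to 31 counts per DMSO library. How single calls of this list depend on 1 library was not tested. Of all genes tested, 20.5% rose with 2-77, 18.2% with ENZA, 12.4% with P-16, 35.4% with ACBI and 24.5% with BD98. LTBP3, which tethers latent TGF-beta to the matrix, averaged 192 ± 13 CPM with 2-77, 182 ± 8.92 with BD98, 180 ± 7 with P-16 and 199 ± 4.96 with ENZA, all called, and 153 ± 11.7 with ACBI (adjusted p = 0.12), against 143 ± 3.65 with DMSO. LTBP1, with the same role, rose with 2-77 (1.37), P-16 (0.97) and ENZA (0.88). With ACBI the 2 called genes were LTBP2 (0.94) and CHRD, a BMP trap (1.26).

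Of 11 tested receptors and co-receptors, 3 rose and 2 fell with 2-77, and 4 rose and 4 fell with ACBI. With BD98, 1 rose and 4 fell, with P-16, 3 rose and 3 fell, and with ENZA, 2 rose and 1 fell. Called were 45.5%, 72.7%, 45.5%, 54.5% and 27.3% in that order, against 40.7%, 72%, 49%, 24% and 36.3% of all genes. TGFBR2, the type II receptor that TGF-beta needs, was at 1 ± 0.225 CPM with 2-77, 0.616 ± 0.0477 with ACBI, 1.07 ± 0.336 with BD98, 0.879 ± 0.233 with P-16 and 0.743 ± 0.155 with ENZA, against 0.666 ± 0.283 with DMSO, and no change was called. Its libraries held 6 to 37 counts each, so only large changes were detectable. BAMBI, a pseudoreceptor that blocks signalling, split the compounds: it rose with 2-77 (0.62), P-16 (0.28) and ENZA (0.81) and fell with ACBI (-0.82) and BD98 (-1.83). BMPR1B, a BMP type I receptor, fell with all 5, by 0.77 with 2-77, 1.07 with ACBI, 0.31 with BD98, 0.59 with P-16 and 0.58 with ENZA. TGFBR3, the co-receptor betaglycan, rose with 2-77 (0.53), ACBI (0.71), BD98 (0.62) and P-16 (0.35) and was 0.01 with ENZA without a call.

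SMAD1, SMAD5 and SMAD9 carry the BMP branch. With BD98 all 3 fell, SMAD1 by 0.56, SMAD5 by 0.21 and SMAD9 by 0.7 on the log2 scale. Among all genes tested, 24.5% fell with BD98. With ACBI, SMAD9 rose by 0.7 and SMAD1 fell by 0.22, and with ENZA SMAD9 fell by 0.61. SMAD1 rose with 2-77 (0.22) and P-16 (0.2), and SMAD9 fell by 0.34 with 2-77.

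Of 8 SMAD anchors, partners and corepressors, 3 rose and 2 fell with 2-77, and 3 rose and 3 fell with ACBI. With BD98, 2 rose and 3 fell, with P-16, 1 rose and 1 fell, and with ENZA, 3 rose and 2 fell. Called were 62.5%, 75%, 62.5%, 25% and 62.5% in that order, against 40.7%, 72%, 49%, 24% and 36.3% of all genes. TGIF1, a SMAD2 corepressor, fell with ACBI to 15.9 ± 1.86 CPM, against 32.6 ± 2.14 CPM with DMSO (-1.03, adjusted p = 1.69e-12), and by less with BD98 (-0.3) and ENZA (-0.26). Its relative TGIF2 rose with 2-77 (0.38), BD98 (0.43), P-16 (0.21) and ENZA (0.27). FKBP1A, which holds the type I receptor inactive, fell with 2-77 (-0.17), ACBI (-0.15), BD98 (-0.52) and ENZA (-0.13).

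The ubiquitin ligases, deubiquitinases and phosphatases that act on SMADs and receptors rose with ACBI in 10 of 10 tested genes, at a median of 0.52, against 35.4% of all genes tested and a median of -0.01 over all genes. WWP1 rose most, to 249 ± 16.3 CPM with ACBI, against 86.6 ± 1.67 CPM with DMSO (1.52, adjusted p = 2.12e-21). With 2-77, 3 of the 10 rose and 2 fell, and with BD98, 4 rose and 2 fell. With P-16, 1 rose and 1 fell, and with ENZA, 3 rose and 2 fell. Called were 50%, 60%, 20% and 50% in that order, against 40.7%, 49%, 24% and 36.3% of all genes. NEDD4L, a ligase for activated SMAD2 and SMAD3, rose with ACBI (0.6) and fell with 2-77 (-0.72), BD98 (-0.32), P-16 (-0.27) and ENZA (-0.48). SMURF2, a ligase that works with SMAD7 on the receptor, rose with ACBI (0.44), fell with 2-77 (-0.2) and ENZA (-0.27), and was 0.01 with BD98 and -0.2 with P-16 without a call. LDLRAD4, a relative of PMEPA1 that also keeps SMAD2 and SMAD3 from the receptor, had 1 to 15 counts per condition and was not tested.

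**Figure D4:**
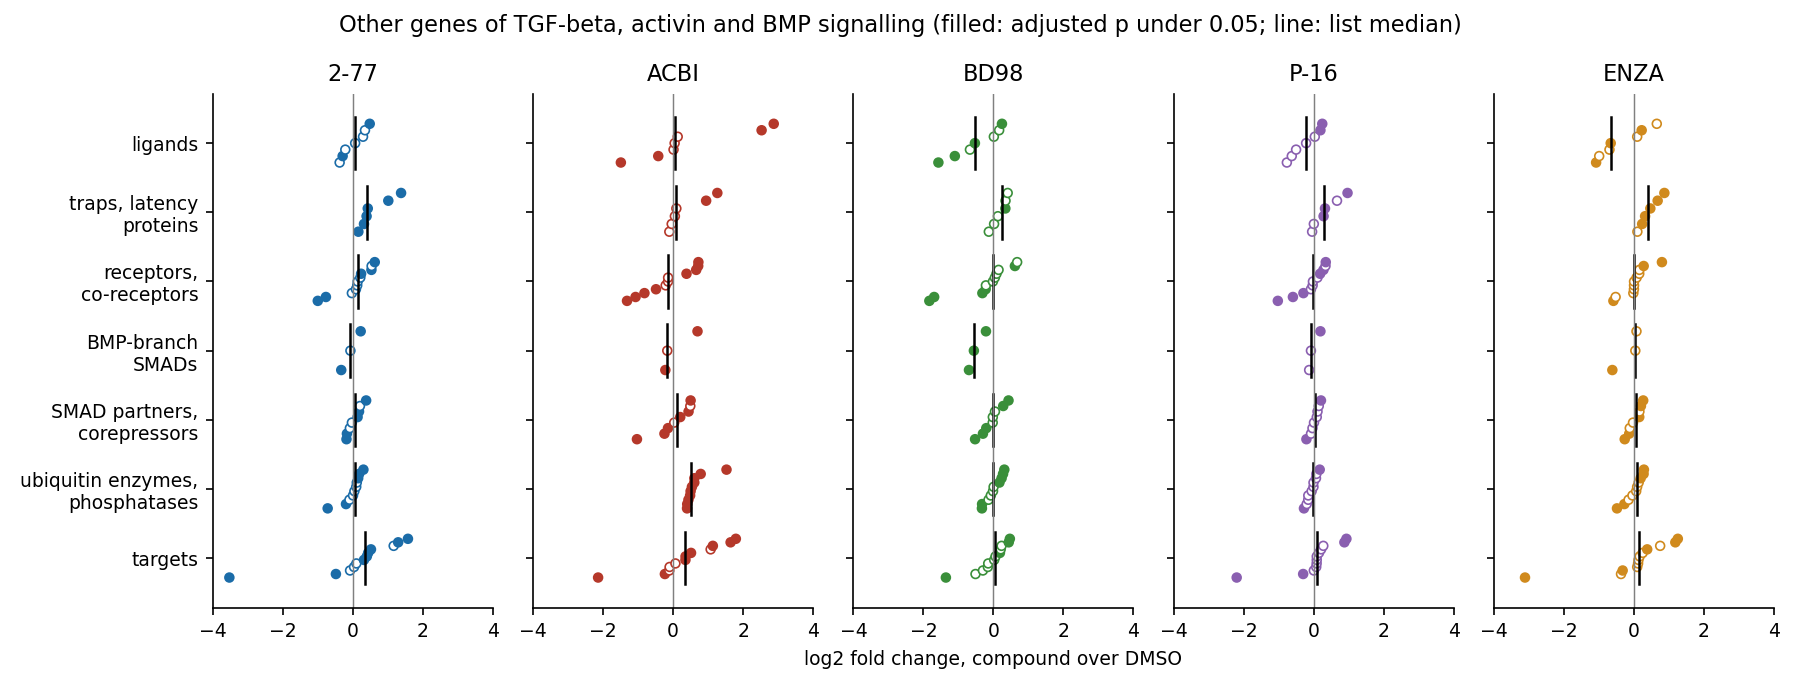
Log2 fold change over DMSO (horizontal axis) of 57 further pathway genes in 7 role lists (rows), 1 panel per compound; points are genes, filled where the adjusted p is under 0.05, and the black line is the list median. With ACBI the 10 genes of the ubiquitin and phosphatase row all lie right of 0, with a median of 0.52.

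Known transcriptional targets of the pathway moved in both directions. Of 12 tested targets, 6 rose and 2 fell with 2-77, and 6 rose and 2 fell with ACBI. With BD98, 3 rose and 1 fell, with P-16, 2 rose and 2 fell, and with ENZA, 3 rose and 2 fell. Called were 66.7%, 66.7%, 33.3%, 33.3% and 41.7% in that order, against 40.7%, 72%, 49%, 24% and 36.3% of all genes. CCN2, a standard reporter of SMAD3 activity, had 0 to 4 counts per condition and was not tested. ID3, a BMP target, was 14.4 ± 1.18 CPM with 2-77, 6.17 ± 0.561 with ACBI, 6.65 ± 0.63 with BD98, 9.24 ± 0.948 with P-16 and 11.6 ± 0.756 with ENZA, against 4.85 ± 0.188 with DMSO (SD, n = 3 each), and rose with all 5. TSC22D1 fell with 2-77 (-0.49), P-16 (-0.3) and ENZA (-0.32) and rose with ACBI (0.35) and BD98 (0.19). ID2 rose with 2-77 (0.51) and ACBI (1.79), and KLF10, a TGF-beta early-response gene, rose with 2-77 (0.4), ACBI (0.51), BD98 (0.44) and ENZA (0.38). SNAI2, named after its values were seen, fell with all 5, to 0.105 ± 0.0513 CPM with 2-77, 0.28 ± 0.142 with ACBI, 0.475 ± 0.0798 with BD98, 0.265 ± 0.173 with P-16 and 0.145 ± 0.04 with ENZA, against 1.24 ± 0.165 with DMSO, on 73 counts in all DMSO libraries together.

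PMEPA1 was then set beside a panel of 4 androgen-induced genes, KLK3, KLK2, TMPRSS2 and FKBP5. The panel all fell with each compound except FKBP5, a chaperone partner of steroid receptors, which rose by 2.07 with ACBI. With ENZA, the antiandrogen, the log2 fold change was -2.15 for KLK3 (the gene of prostate-specific antigen), -3.23 for KLK2, -2.03 for TMPRSS2 and -0.96 for FKBP5, and -2.28 for PMEPA1. With 2-77 the values were -2.54, -3.64, -2.56 and -0.99 in the same order of genes, and -2.27 for PMEPA1. With both compounds PMEPA1 had a smaller change than KLK2 and a larger one than FKBP5.

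With BD98 and P-16, PMEPA1 had the largest change of the 5 genes. With P-16, KLK3 changed by -0.83, KLK2 by -1.43, TMPRSS2 by -1.33 and FKBP5 by -0.76, and PMEPA1 by -2.04 with a 95% interval of -2.12 to -1.97. With BD98, KLK3 changed by -0.74, KLK2 by -1.01, TMPRSS2 by -0.38 and FKBP5 by -0.13, and PMEPA1 by -1.31 with a 95% interval of -1.38 to -1.24. The lowest interval bound in the panel was that of KLK2, at -1.51 with P-16 and -1.09 with BD98, so the PMEPA1 intervals lay below those of all 4 panel genes with both compounds. With ACBI, PMEPA1 (-1.41) lay above KLK3 (-2.71), KLK2 (-4.17) and TMPRSS2 (-1.93) and below FKBP5 (2.07). Differences between genes were not tested.

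The genes whose pattern over the 6 conditions was most like that of PMEPA1 were found among 10548 genes of at least 10 CPM in 1 condition, by the root mean square difference of centred log2 levels. They were IQGAP2 (0.23), STK39 (0.27), TWIST1 (0.3), INPP4B (0.34) and SIPA1L2 (0.35). IQGAP2, a scaffold protein, averaged 10.2 CPM with 2-77, 18.7 with ACBI, 18.4 with BD98, 11.5 with P-16 and 9.74 with ENZA, against 31 with DMSO. STK39, a kinase of ion transport, averaged 52.7, 114, 88.8, 82.7 and 55.7 CPM with the compounds in that order, against 194 CPM with DMSO. INPP4B, a lipid phosphatase, averaged 4.83, 7.05, 9.27, 8.31 and 6.86 CPM in that order, against 20 CPM with DMSO. Each of the 5 genes was lowest with 2-77 or ENZA and highest with DMSO, which follows from the choice by likeness. Their log2 fold changes were smaller in size than those of PMEPA1 with every compound, except INPP4B with ACBI (-1.5).

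**Figure D5:**
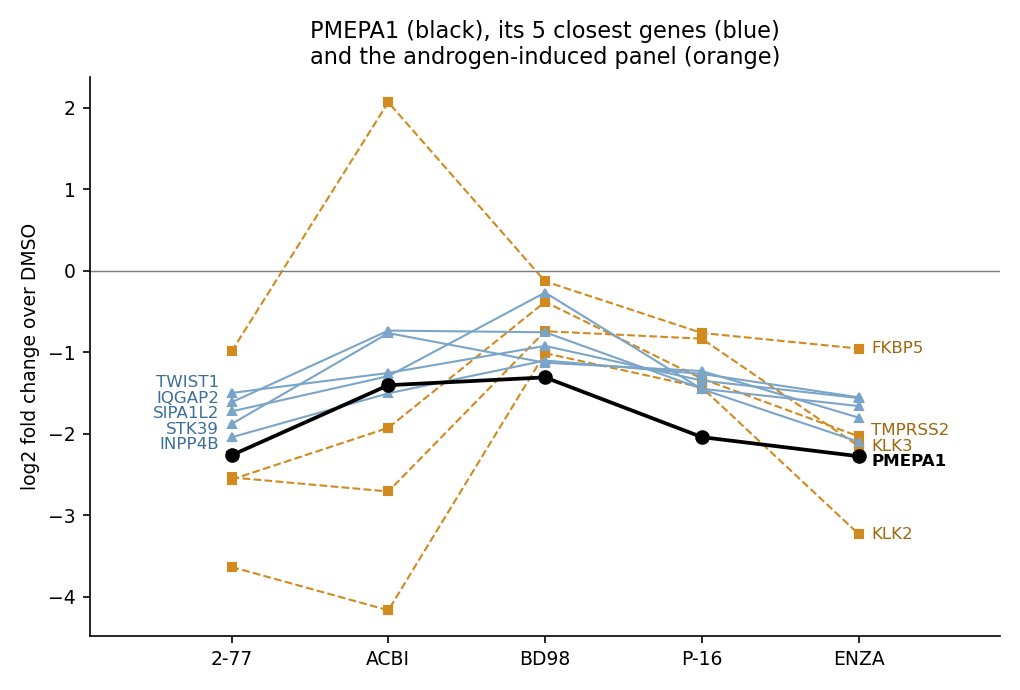
Log2 fold change over DMSO (vertical axis) with each compound of PMEPA1 (black, bars are 1 standard error), of the 5 genes most like it (blue triangles) and of 4 androgen-induced genes (orange squares, dashed). PMEPA1 lies below all 9 with BD98 and P-16 and above KLK2 with 2-77 and ENZA.

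The distances from SKIL and SMAD7 to their nearest genes were smaller, as were the changes of both genes. The nearest to SKIL were PDIK1L (0.03), RHOBTB3 (0.04) and GASAL1 (0.04), each lowest with BD98. The nearest to SMAD7 were GNAZ (0.04), CCND1 (0.06) and ABLIM1 (0.06), each lowest with ACBI. These shared lows follow from the choice of genes by likeness. CCND1, the gene of cyclin D1, averaged 492 CPM with 2-77, 219 with ACBI, 379 with BD98, 484 with P-16 and 471 with ENZA, against 432 CPM with DMSO.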

How the data were processed

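RNA of LNCaP cells was sequenced from a stranded mRNA kit, per the labels' protocols. The authors deposited expected counts (estimated counts of reads per gene, not scaled) for 20145 genes on hg38. STAR, Partek and DESeq2 are named in the submitters' processing notes. The program that counted reads, its annotation and its strand setting are not given in the sources used here. SCO277 in a column name stood for 2-77 and PB_16 for P-16. The number of unused sample columns was 0.

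After rounding, counts went into edgeR 4.0.16 (R 4.3.3). The function filterByExpr removed 4723 genes, TMM factors scaled the 18 libraries, and a robust quasi-likelihood model with 12 residual degrees of freedom gave all contrasts (two-sided, Benjamini-Hochberg over 15422 genes, threshold 0.05). Across genes, edgeR's common coefficient of variation came to 0.0573. Intervals are at 95% and cover the spread between these libraries. The script was tested on simulated data.

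The 9 genes and all lists were chosen with earlier results of these data known. All 9 were described in every condition. From the role lists, the genes with the 2 smallest adjusted p per list and contrast could be named, with TGFBR2, LDLRAD4 and SMURF2 in any case, and from the likeness ranking the first 5 for PMEPA1 and 3 each for SKIL and SMAD7. SNAI2, CCN2, SMAD5, LTBP4 and NKILA were named outside this rule, after their values were seen. Some genes first placed on the lists are not reported here and were left out of every list count.

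Libraries were treated as unpaired: over 10279 genes of at least 10 CPM, deviations of 11 of 45 same-number pairs correlated above 0.1, and no condition did so with DMSO in all 3 pairs. Only 2-77 with ACBI did, where the replicate block kept the PMEPA1 call. Alternatives were DESeq2 1.42.0, RLE, upper quartile or no scaling factors, no filter or a stricter one, no ribosomal RNA genes, a replicate block, no robust dispersion, the 2 groups compared alone, and each library left out. Promoter windows came from RefSeq, and figures from matplotlib 3.10.9.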

Additional observations from a re-analysis of the deposited data

How the results depend on the processing

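Each result was recomputed under 28 alternatives. PMEPA1 kept its direction and its call against DMSO in all 28 with every compound, at -2.28 to -2.25 with 2-77, -1.45 to -1.39 with ACBI, -1.32 to -1.25 with BD98, -2.05 to -2.03 with P-16 and -2.28 to -2.27 with ENZA. The number of the 9 genes called with P-16 was 4, and 2 with DESeq2, with library totals and with a replicate block, and 1 to 4 when each library was left out. The number of genes that differed between 2-77 and ENZA was 855, and 499 to 1180 when each library was left out (499 without 2-77 replicate 1, 560 without 2-77 replicate 2 and 555 without ENZA replicate 1). Same-number libraries are not paired by the labels, and in the replicate block SMAD3 and SMAD7 with P-16 and SKIL with BD98 also lost their calls (adjusted p = 0.0566, 0.0532 and 0.0516). The pairs of conditions that differed in TGFBR1 were 3, but 5 with library totals, with upper quartile factors and without ACBI replicate 3, and 0 without ACBI replicate 2. Those that differed in SKI were 5, but 8 without ACBI replicate 1 and 3 without BD98 replicate 3. Against DMSO, leaving out 1 library ended the calls of TGFBR1 with ACBI, SMAD3 with P-16 (adjusted p up to 0.16, without P-16 replicate 3), SMAD6 with 2-77 and P-16, SMAD7 with 2-77, P-16 (up to 0.2, without DMSO replicate 2) and ENZA, and SKI and SKIL with BD98. The PMEPA1 difference of ACBI over BD98 also lost its call in this way. The cause of these shifts was not tested.

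Values without a call changed sign near 0. With library totals BD98 gave 0.024 for TGFBR1, 0.045 for SMAD2, 0.050 for SMAD3 and 0.052 for SMAD4, P-16 gave -0.0002172 for SKI, and ACBI gave -0.023 for SKIL, which was -0.0034 with upper quartile factors. SMAD6 with BD98 was -0.0069 with DESeq2 and with RLE factors, -0.0004283 with a stricter filter and -0.0058 without ribosomal RNA genes. When each library was left out, the log2 fold change was -0.05645 to 0.07646 for TGFBR1 with 2-77, -0.1271 to 0.02528 for TGFBR1 with BD98, -0.132 to 0.0007637 for TGFBR1 with ENZA, -0.07861 to 0.05972 for SMAD2 with BD98, -0.07763 to 0.007511 for SMAD3 with BD98, -0.06188 to 0.04326 for SMAD4 with BD98, -0.0148 to 0.06745 for SMAD4 with P-16, -0.03245 to 0.04979 for SMAD6 with BD98, -0.02088 to 0.04743 for SKI with 2-77, -0.02618 to 0.04349 for SKI with P-16, -0.08684 to 0.2326 for SKIL with 2-77, -0.1078 to 0.1394 for SKIL with ACBI, -0.1611 to 0.0354 for SKIL with P-16 and -0.0003648 to 0.023 for PMEPA1 in 2-77 over ENZA. With a promoter window cut to its nearer part, the PMEPA1 hexamer and both boxes in window 1 of SMAD7 lay outside. CCN2 and LDLRAD4 had too few counts to be tested, and TGFBR2, with 6 to 37 counts per library, was tested at low depth.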
